A study of Mus musculus with 9 samples.

Results

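The FOXO transcription factor genes Foxo1 and Foxo3 and 8 genes known as targets of FOXO factors (Trib2, Sod2, Cat, Sesn1, Sesn3, Pik3ip1, Irs2 and Txnip) were followed in mouse regulatory T (Treg) cells. They were taken by gene symbol, and all 10 were found among the 22180 genes measured, through 11 probe sets of the 23521 with 1 gene symbol. Foxo1 had 2 probe sets and each of the others had 1. Treg cells without the Hippo kinases Mst1 and Mst2 (KO, 4 samples) were compared with wild-type Treg cells (WT, 5 samples) on 1 Affymetrix array per sample. KO donors carried Foxp3YFP-Cre together with Stk4f/f and Stk3f/f, loxP-flanked alleles of the genes for Mst1 and Mst2, and WT donors carried Foxp3YFP-Cre alone. All were of the C57BL/6 strain. In both groups marrow of the donor was mixed in equal parts with CD45.1 wild-type marrow and given to RAG1-/- recipients, which lack T and B cells of their own, and CD4+YFP+ cells of CD45.2 origin were sorted. Cre was driven from the Foxp3 locus, so the alleles are cut only in cells that have expressed Foxp3, beside wild-type Treg cells in the same animal. The labels do not state whether each sample had its own chimera, and the p-values below therefore rest on a spread that may be technical.

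FOXO factors are forkhead proteins that switch on genes of quiescence, homing, cell death and defence against oxidants. Signalling through PI3K and the kinase Akt phosphorylates them and keeps them out of the nucleus, while Mst1 is known, from work in other cells, to phosphorylate them within the DNA-binding domain. In Treg cells Foxo1 is known to be needed for suppressive function. These are controls on the protein, which an array of transcripts does not measure.

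Promoter sequence was read for the genes that changed and for the genes that held a full forkhead motif. Windows of 250 bases before each annotated start (RefSeq, GRCm38.p6) were available for 10 of 10 genes and were searched on both strands for GTAAACA, the core of the element bound by FOXO proteins, for CAAAACA, a core of the insulin response element, and for AAACA, which lies inside both. GTAAACA was found in Txnip alone among the 10 genes, and in 3.54% of all 27025 genes with a window (3.17% of all 32851 windows). CAAAACA was found in Irs2 alone, and in 6.38% of all genes (5.56% of windows). The short core AAACA was present in 4 of the 10 genes (Foxo1, Sesn1, Irs2 and Txnip) and in 50% of all genes (46.4% of windows). Capitals mark the matches in the first 2 sequences, the Txnip stretch at chr3:96557811-96557867 on the plus strand and the Irs2 stretch at chr8:11008935-11008991 on the minus strand. The other 2 sequences are the last 75 bases before the start of the genes that changed, Sod2 at chr17:13007764-13007838 on the plus strand and Trib2 at chr12:15816786-15816860 on the minus strand, whose windows held none of these letters.
Txnip: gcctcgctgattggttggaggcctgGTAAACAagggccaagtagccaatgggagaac
Irs2: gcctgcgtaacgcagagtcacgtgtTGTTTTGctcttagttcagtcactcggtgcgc
Sod2: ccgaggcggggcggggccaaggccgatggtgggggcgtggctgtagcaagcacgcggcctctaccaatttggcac
Trib2: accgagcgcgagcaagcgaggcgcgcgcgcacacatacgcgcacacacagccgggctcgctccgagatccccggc
In Txnip the match spanned bases 121 to 115 before the start, and in Irs2 bases 37 to 31, where it read TGTTTTG on the strand of the gene. A match is a run of letters and says nothing of whether a factor binds there.

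Values are log2 RMA values as the authors deposited them, and each difference is KO minus WT with its standard error (SE). Changes were called by limma across all 22180 genes at an adjusted p under 0.05, by which 515 genes passed (2.32%), 95 of them higher (0.428%) and 420 lower (1.89%) in KO. The higher share was 18.4%, and 35.7% after quantile normalization of the gene values. All 10 genes lay above 4.04, the median of all probe set values, in every sample. Foxp3, the factor that defines Treg cells, was 10.72 ± 0.092 in KO and 10.70 ± 0.049 in WT (SD, n = 4 and n = 5). Of 7 Treg cell markers, 7 lay above that median, and Ikzf2, a transcription factor of thymic Treg cells, fell in KO (9.31 ± 0.34 in KO and 10.03 ± 0.15 in WT, limma adjusted p = 0.033), a call that was lost on leaving out any 1 sample other than KO replicate 3 or 4 (adjusted p up to 0.0908) and with the replicate number as a block (0.168). Differences of the 7 Treg cell markers were positive in 2 and negative in 5 (median -0.18). Their summed log2 level ran from 66.7 to 68.0 in KO and from 68.9 to 69.3 in WT. Ikzf2 alone passed, joined by Cd3e after median centring. Stk4, the gene for Mst1, was 7.64 ± 0.15 in KO and 7.91 ± 0.10 in WT (limma adjusted p = 0.146). Its single probe set need not lie in the deleted part and does not check the deletion, and no probe set was paired with Stk3 here. Some samples stood apart. The mean of the heat shock genes Hspa1a and Hspa1b was 3.70 in KO replicate 1, 5.94 in WT replicate 1 and 3.06 in WT replicate 2, and between 8.56 and 10.21 in the remaining samples. KO replicate 4 correlated across genes, which are not independent, no more closely with the other KO samples (mean r 0.9873) than with WT samples (0.9877).

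Transcript levels of the FOXO factor genes themselves did not differ beyond their spread. Foxo1 read 8.92, 8.78, 8.71 and 8.53 in KO replicates 1 to 4, against 8.63, 8.64, 8.86, 8.58 and 8.71 in WT replicates 1 to 5. KO values lay both above and below the WT range. The difference was 0.05 ± 0.089 (95% interval -0.15 to 0.25, limma adjusted p = 0.851). The second probe set of Foxo1 had the opposite sign, at 8.11 ± 0.21 in KO and 8.23 ± 0.059 in WT (difference -0.12, 95% interval -0.32 to 0.09, limma adjusted p = 0.623 over all named probe sets).

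Foxo3 was spread more widely in KO. It read 5.30, 5.10, 5.46 and 4.70 in KO replicates 1 to 4, against 5.17, 4.95, 5.18, 5.10 and 5.10 in WT. KO replicates 3 and 4 held the highest and the lowest value of all 9 samples, and the SD was 0.33 in KO and 0.094 in WT. The difference was 0.04 ± 0.14 (95% interval -0.26 to 0.34, limma adjusted p = 0.927). Foxo4 (5.78 ± 0.19 in KO and 5.82 ± 0.13 in WT) and Foxo6 (4.17 ± 0.17 in KO and 4.12 ± 0.046 in WT), the remaining FOXO genes, did not pass either.

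**Figure D1:**
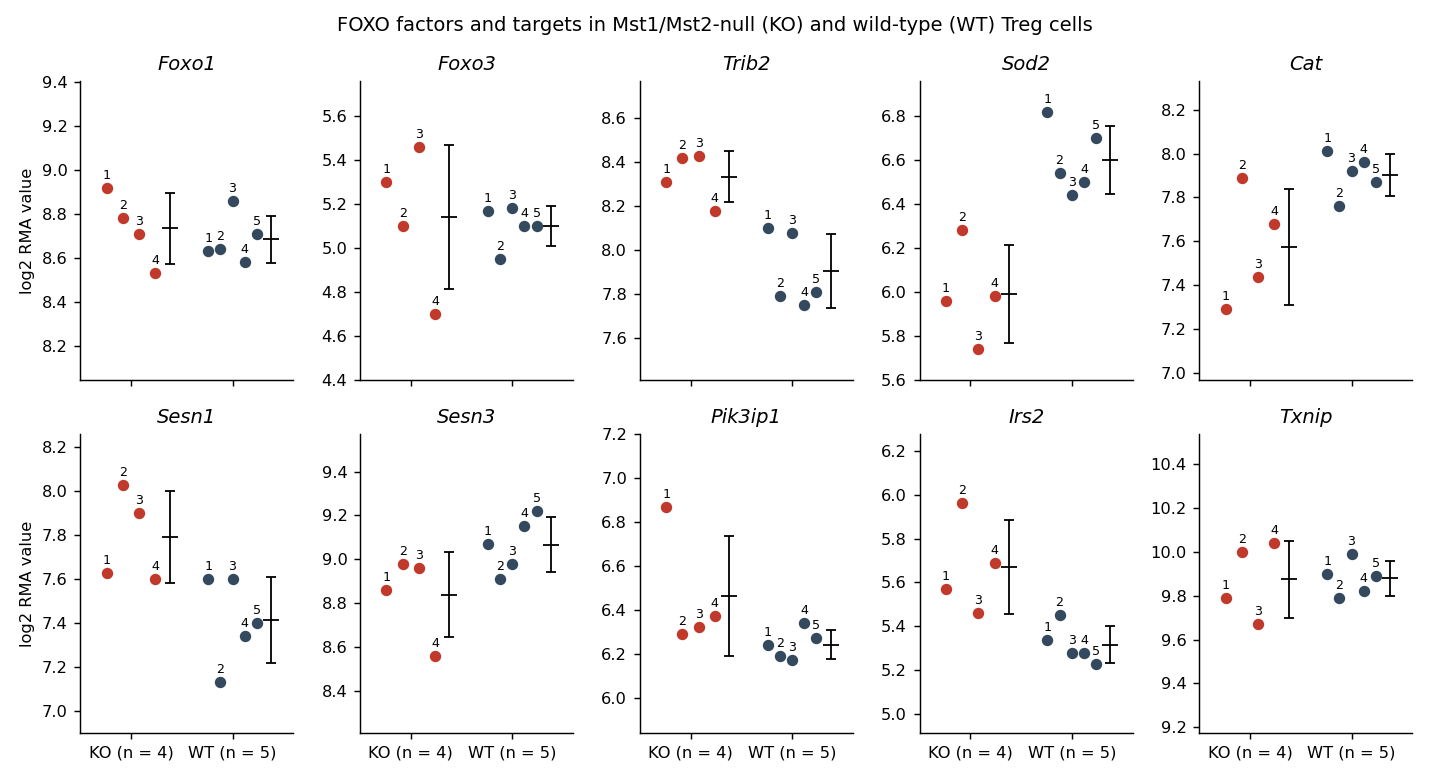
Log2 RMA value (vertical axis, the same span in each panel) of 10 genes in 4 KO samples (red) and 5 WT samples (dark blue), with the replicate number above each point and the mean ± SD to the right of each group. KO and WT points do not overlap for Trib2, Sod2 and Irs2, and the KO points of Foxo3 spread from 4.70 to 5.46.

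Trib2, which encodes a pseudokinase of the tribbles family and is known in human melanoma cells to restrain FOXO, was the 1 gene of the set that rose. It read 8.31, 8.42, 8.43 and 8.18 in KO, against 8.10, 7.79, 8.08, 7.75 and 7.81 in WT. Each KO value lay above each WT value, with the closest pair KO replicate 4 and WT replicate 1. The means were 8.33 ± 0.12 in KO and 7.90 ± 0.17 in WT, a 1.35-fold rise (difference 0.43 ± 0.097, 95% interval 0.22 to 0.64, limma adjusted p = 0.0497). That adjusted p lay just inside the threshold. It left the threshold without WT replicate 2 (0.127), 3 (0.0536), 4 (0.118) or 5 (0.112) and without KO replicate 1 (0.104), 2 (0.0939) or 3 (0.129), while the difference stayed between 0.39 and 0.48 whichever single sample was left out.

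Sod2, the manganese superoxide dismutase of mitochondria, was the 1 gene of the set that fell. It read 5.96, 6.28, 5.74 and 5.98 in KO, against 6.82, 6.54, 6.44, 6.50 and 6.70 in WT. The highest KO value, in replicate 2, lay below the lowest WT value. Its means were 5.99 ± 0.22 in KO and 6.60 ± 0.16 in WT, 1.53-fold lower in KO (difference -0.61 ± 0.11, 95% interval -0.86 to -0.36, limma adjusted p = 0.0228). Adjusted p passed 0.05 without WT replicate 1 (0.0533), 2 (0.0551) or 5 (0.0603) and without KO replicate 1 (0.0658) or 3 (0.0563), with differences between -0.71 and -0.53 whichever single sample was left out.

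Cat encodes catalase, which breaks down the hydrogen peroxide that superoxide dismutases make. It read 7.29, 7.89, 7.44 and 7.68 in KO, against 8.01, 7.76, 7.92, 7.96 and 7.87 in WT. KO replicates 1, 3 and 4 lay below the WT range and the value of replicate 2 lay inside it. The difference of -0.33 ± 0.11 (95% interval -0.59 to -0.08) did not pass (limma adjusted p = 0.193). Without KO replicate 2 it was -0.44 and passed (limma adjusted p = 0.0495).

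The sestrin genes had differences of opposite sign. Sestrins are stress-inducible proteins that restrain the growth kinase complex mTORC1. Sesn1 read 7.63, 8.03, 7.90 and 7.60 in KO, against 7.60, 7.13, 7.60, 7.34 and 7.40 in WT. KO replicates 2 and 3 stood clear of WT, and replicates 1 and 4 sat at its upper edge (difference 0.38 ± 0.12, 95% interval 0.10 to 0.65, limma adjusted p = 0.162). Sesn3 read 8.86, 8.98, 8.96 and 8.56 in KO, against 9.07, 8.91, 8.98, 9.15 and 9.22 in WT, so that the groups overlapped, with KO replicate 4 well below the rest (difference -0.23 ± 0.10, 95% interval -0.45 to -0.01, limma adjusted p = 0.316). Neither gene passed, and whether their differences differ from each other was not tested.

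Pik3ip1 and Irs2 act at the start of the PI3K pathway. Pik3ip1 encodes a membrane protein that inhibits PI3K, and Irs2 an adaptor that links insulin and cytokine receptors to it. Irs2 read 5.57, 5.96, 5.46 and 5.69 in KO, against 5.34, 5.45, 5.28, 5.28 and 5.23 in WT. Its groups did not overlap, although KO replicate 3 lay barely above WT replicate 2. The difference of 0.36 ± 0.098 (95% interval 0.14 to 0.57) did not pass (limma adjusted p = 0.103). It passed after quantile normalization of the gene values (0.42, limma adjusted p = 0.0391). Pik3ip1 read 6.87, 6.29, 6.32 and 6.37 in KO, against 6.24, 6.19, 6.17, 6.34 and 6.27 in WT. KO replicate 1 stood well above all other samples. The difference was 0.22 ± 0.11 with all samples (limma adjusted p = 0.414) and 0.085 without that replicate.

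Txnip, which binds thioredoxin and limits glucose uptake, did not differ between the groups beyond its spread. It read 9.79, 10, 9.67 and 10.04 in KO, against 9.90, 9.79, 9.99, 9.82 and 9.89 in WT. KO values lay on both sides of the WT range. The difference was -0.002 ± 0.087, with a 95% interval of -0.19 to 0.19 (limma adjusted p = 0.996).

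**Figure D2:**
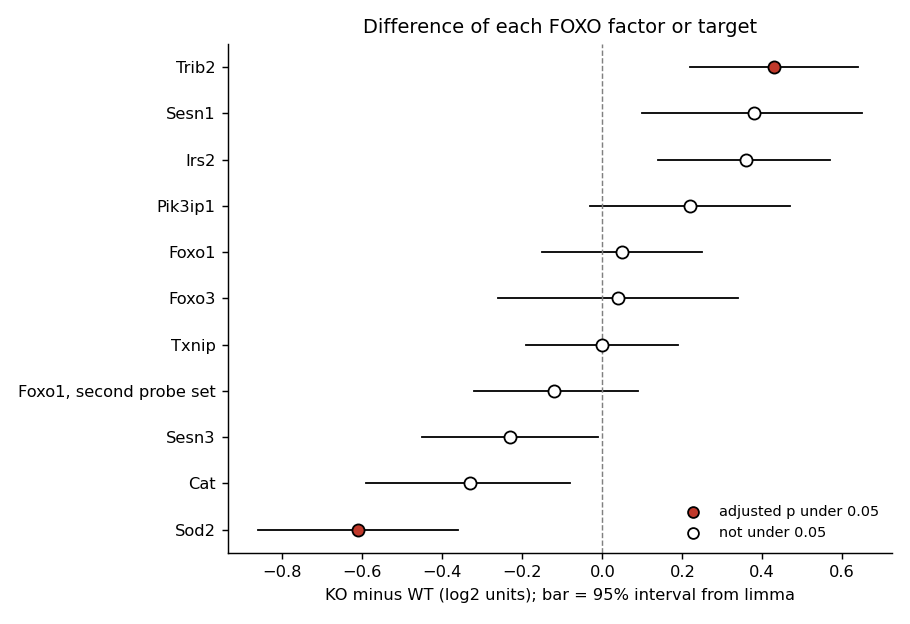
KO minus WT (horizontal axis, log2 units) for each of the 10 genes and for the second probe set of Foxo1, with 95% intervals from limma; filled points have an adjusted p under 0.05. The differences run from -0.61 for Sod2 to 0.43 for Trib2, and the intervals of Foxo1, Foxo3, Txnip and Pik3ip1 include 0.

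Across the set, 2 of 10 genes passed, against 2.32% of all genes, and in 3 of 10 (Trib2, Sod2 and Irs2) the groups did not overlap, against 6.16% of all genes. At an unadjusted p under 0.05 there were 6 of 10, against 14.9% of all genes. All 10 lay above the median value, and the shares were larger among the 11350 such genes. There 488 passed, 1182 had groups without overlap and 2678 had an unadjusted limma p under 0.05. With 6 genes higher and 4 lower, the median difference was 0.046, beside 0.002 over all genes, while the median size of the difference regardless of sign was 0.279, beside 0.0883 over all genes and 0.121 over the 11350 genes above the median value. The genes were put together with results of these data known, so these counts describe them and test nothing.

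KO samples were more uneven than WT samples in these genes. The SD was larger in KO for 9 of 10, Trib2 being the exception, against 59.2% of all genes and 66.7% of genes above the median value. The median SD was 0.211 in KO and 0.102 in WT over the 10 genes, and 0.144 in KO and 0.122 in WT over all genes. Within KO, replicate 2 held the highest value for 5 of the 10 genes (Sod2, Cat, Sesn1, Sesn3 and Irs2), against 34.3% of all genes, and replicate 4 held the lowest for 5 (Foxo1, Foxo3, Trib2, Sesn1 and Sesn3), against 31.7% of all genes. With both of these replicates left out, an alternative chosen after seeing the data, Sod2 (-0.75, limma adjusted p = 0.0191) and Cat (-0.54, limma adjusted p = 0.0186) passed and Trib2 did not (0.46, limma adjusted p = 0.085).

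**Figure D3:**
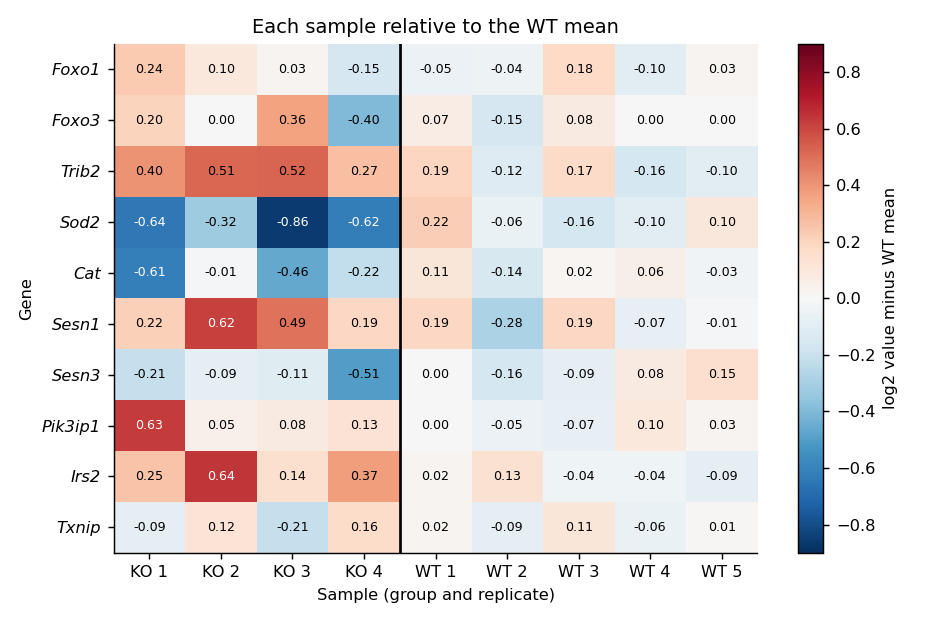
Each cell gives the log2 value of a gene (rows) in a sample (columns, KO replicates left and WT replicates right of the black line) minus the WT mean of that gene; red is higher and blue lower. Trib2 is positive in all 4 KO samples (0.27 to 0.52) and Sod2 negative in all 4 (-0.86 to -0.32), while Foxo3, Txnip and Foxo1 have both signs within KO.

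Patterns most like those of 4 genes were sought among 19249 named genes, by the root-mean-square difference over the 9 samples after centring each gene on its own mean. Nearest to Trib2 were Taf4b (0.0603 log2 units), a subunit of a general transcription factor, and Arhgef1 (0.0646), a guanine nucleotide exchange factor, against a median of 0.288 over all genes searched. Taf4b was 6.48 ± 0.078 in KO and 6.05 ± 0.20 in WT, and Arhgef1 10.50 ± 0.13 in KO and 10.12 ± 0.19 in WT, and neither passed (limma adjusted p = 0.0606 and 0.107). Nearest to Sod2 were Tbc1d4 (0.104), a Rab GTPase-activating protein that Akt phosphorylates, and Mdh1 (0.11), the cytosolic malate dehydrogenase, against a median of 0.367. Tbc1d4 (5.76 ± 0.13 in KO and 6.38 ± 0.051 in WT, limma adjusted p = 0.0025) and Mdh1 (7.36 ± 0.14 in KO and 7.87 ± 0.11 in WT, limma adjusted p = 0.0126) both fell. Such genes were picked for likeness over these same samples, so their direction and p-values largely follow from the choice. Scgb2b20 (0.0402) and Synrg (0.0439) lay nearest to Foxo1, and Tmem262 (0.0713) and Amer1 (0.0742) to Foxo3, of which Scgb2b20 lay below the median of all probe set values.

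Among other known FOXO targets, 1 fell, 0 rose and 36 did not pass of 37 measured (42 listed). Differences were positive in 15 and negative in 22 (median -0.03), and positive in 20 and negative in 17 after quantile normalization (median 0.01). As background for this list and those below, 11253 of all genes were higher and 10927 lower in KO. Of all genes 2.32% passed, and in 6.16% the groups did not overlap. Among the 11350 genes above the median value, 4628 were higher and 6722 lower. Rbl2, a pocket protein of the retinoblastoma family that holds cells out of the cycle, read 7.90, 7.83, 7.76 and 8.18 in KO, against 8.51, 8.94, 8.56, 8.78 and 8.73 in WT. Its groups did not overlap, and it was 1.72-fold lower in KO (difference -0.78 ± 0.11, limma adjusted p = 0.0063). Klf2, a transcription factor of T cell homing, and its target S1pr1, the receptor that lets T cells leave lymphoid organs, were picked out with their values known. Klf2 was 7.48 ± 0.027 in KO and 7.02 ± 0.23 in WT without overlap (difference 0.46, limma adjusted p = 0.0589), and S1pr1 9.36 ± 0.26 in KO and 8.87 ± 0.14 in WT (difference 0.48, limma adjusted p = 0.0752). Neither passed, but Klf2 did without WT replicate 3 (limma adjusted p = 0.0395) or after quantile normalization (limma adjusted p = 0.024), S1pr1 without KO replicate 4 (limma adjusted p = 0.00958), and both with dim genes filtered out (limma adjusted p = 0.0357 and 0.0456). S1pr1 passed also without both KO replicates 2 and 4 (limma adjusted p = 0.017). Klf2 and S1pr1 each stayed uncalled in 16 of 19 alternatives (limma adjusted p up to 0.174 and 0.177). Targets lower in KO at similar adjusted p, also not passing, included Map1lc3b (-0.42, limma adjusted p = 0.0751), Bcl6 (-0.57, 0.0779) and Trp53inp1 (-0.5, 0.0827). The remaining 5 listed targets were not analysed here.

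Genes that FOXO factors are known to repress did not pass in any of 4 cases. All 4 differences were negative (median -0.26), and 3 of 4 after quantile normalization. Tbx21, the T-bet gene of type 1 helper cells, was 5.14 ± 0.30 in KO and 5.57 ± 0.092 in WT (limma adjusted p = 0.121), and passed without KO replicate 4 (difference -0.57, limma adjusted p = 0.00794). Ifng, the interferon-gamma gene, was 4.86 ± 0.35 in KO and 5.33 ± 0.23 in WT (limma adjusted p = 0.206).

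Genes that act on FOXO proteins, from PI3K and Akt to phosphatases and carriers, were measured in 36 of 39 cases. Of these, 1 rose, 1 fell and 34 did not pass (median -0.07, and -0.01 after quantile normalization). Differences were positive in 12 and negative in 24, and positive in 17 and negative in 19 after quantile normalization. In 8 the groups did not overlap, against 6.16% of all genes. Pik3r5, a regulatory subunit of the PI3K gamma complex, read 7.49, 7.79, 7.70 and 7.76 in KO, against 7.17, 6.85, 7.24, 7.10 and 7.24 in WT, 1.48-fold higher in KO (limma adjusted p = 0.0159). Inpp5d, the SHIP1 phosphatase that removes the lipid made by PI3K, read 7.52, 7.55, 7.60 and 7.62 in KO, against 7.78, 7.99, 7.81, 7.85 and 7.84 in WT, 1.21-fold lower in KO (limma adjusted p = 0.0487). In neither gene did the groups overlap. Inpp5d no longer passed whichever of the 9 samples was left out (limma adjusted p from 0.0622 to 0.118). The kinase genes Akt1 (6.28 in KO and 6.44 in WT) and Akt2 (7.92 in KO and 7.90 in WT), singled out with their values known, were not called.

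Close relatives of the 10 genes showed no passing change in 12 of 12 cases (4 higher and 8 lower, median -0.09). Sod1, the cytosolic superoxide dismutase, was 10.79 ± 0.11 in KO and 11.02 ± 0.078 in WT (difference -0.23, limma adjusted p = 0.14), without overlap. Arrdc3, an arrestin-domain relative of Txnip, was 6.58 ± 0.18 in KO and 6.94 ± 0.21 in WT (limma adjusted p = 0.17). Among other antioxidant genes, 2 fell, 0 rose and 20 did not pass of 22 measured (25 listed, 6 higher and 16 lower, median -0.10, and -0.05 after quantile normalization). Glrx, the glutaredoxin that reduces protein thiols with glutathione, read 5.83, 6.38, 5.42 and 6.12 in KO, against 6.97, 7.26, 6.90, 6.85 and 6.90 in WT, 2.06-fold lower in KO (limma adjusted p = 0.0131). Gsr, glutathione reductase, read 5.43, 5.74, 5.70 and 5.54 in KO, against 5.95, 5.99, 6.02, 6.00 and 6.04 in WT, 1.32-fold lower in KO (limma adjusted p = 0.0207, but 0.0543, 0.052, 0.057 and 0.0536 without WT replicates 2, 3, 4 and 5). As with Sod2, every KO value of Glrx and Gsr lay below every WT value.

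**Figure D4:**
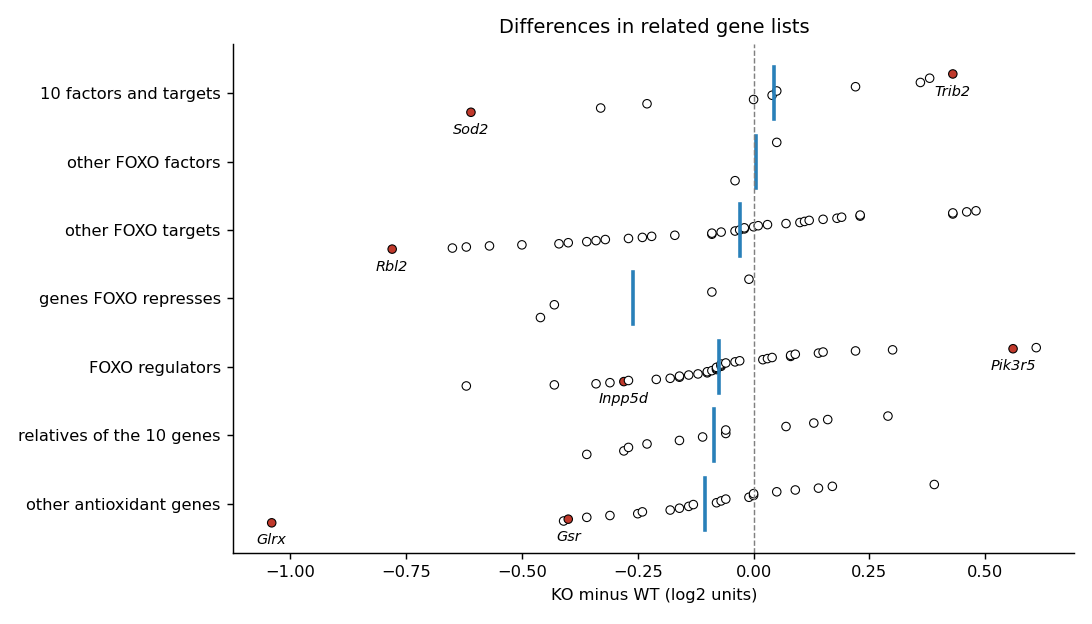
KO minus WT (horizontal axis, log2 units) for the 10 genes and for 6 related lists; each point is a gene, filled points have an adjusted p under 0.05 and are named, and the blue bar is the median of the list. Filled points are Trib2, Sod2, Rbl2, Pik3r5, Inpp5d, Glrx and Gsr, and list medians lie between -0.26 and 0.05.

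Markers of other cells were read in the same samples, and their part in the differences above was not tested. In sorted populations, fewer cells of a kind and less RNA per cell cannot be told apart. Of 7 markers of naive CD4 T cells, 3 rose (Pde3b, Dapl1 and Igfbp4), against 0.428% of all genes. After quantile normalization 6 rose (with Lef1, Satb1 and Actn1), and 170 of all genes did. All 7 differences were positive (median 0.60), and in 5 the groups did not overlap, against 6.16% of all genes. Pde3b passed whichever sample was left out. It was 4.91 in KO and 3.22 in WT, and over all samples it did not average above 4.04, the median of all probe set values. Dapl1 was 5.48 in KO and 3.81 in WT. Dapl1 did not pass without any 1 of the WT samples or KO replicate 1 (limma adjusted p up to 0.0682), nor with the replicate number as a block (0.0879), nor Igfbp4 without WT replicates 2 to 5 or KO replicates 1, 2 or 4 (up to 0.0769). For the 7 markers the summed log2 level ran from 48.1 to 50.5 in KO and from 42.1 to 44.7 in WT. For 11 B cell markers the sum ran from 49.1 to 56.8 in KO and from 45.7 to 54.8 in WT, and for 14 myeloid markers from 56.7 to 70.5 in KO and from 55.2 to 61.5 in WT. Differences were positive in 10 of the 11 B cell and 13 of the 14 myeloid markers (medians 0.25 and 0.17), and none passed. Only 7 of the 11 and 6 of the 14 averaged above the median of all probe set values. Both sums were highest in KO replicate 4, the KO sample with the lowest Foxo1, Foxo3, Trib2, Sesn1 and Sesn3 values. In WT the B cell sum was highest in replicate 1. That sample held the highest WT value for 4 of the 10 genes, against 18.6% of all genes. It held the lowest for 0, against 27.4% of all genes. The myeloid sum in WT was highest in replicate 2. Replicate 2 held the lowest WT value for 5 of the 10 genes, against 25.1% of all genes, and the highest for 1, against 19%. Among the myeloid markers, S100a8 and S100a9 stood highest in KO replicate 4. S100a8 read 2.98, 2.91, 5.84 and 8.90 in KO, against 6.02, 6.89, 4.58, 3.96 and 4.35 in WT. S100a9 read 4.88, 4.40, 5.63 and 8.41 in KO, against 6.76, 6.94, 5.62, 4.55 and 5.28 in WT. Of 6 CD8 T cell markers 3 differences were positive and 3 negative, from -1.16 for Nkg7 to 0.55 for Cd8b1. Only Nkg7 passed. The 4 NK cell markers, and the 1 erythroid marker measured, averaged below the median of all probe set values.

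**Figure D5:**
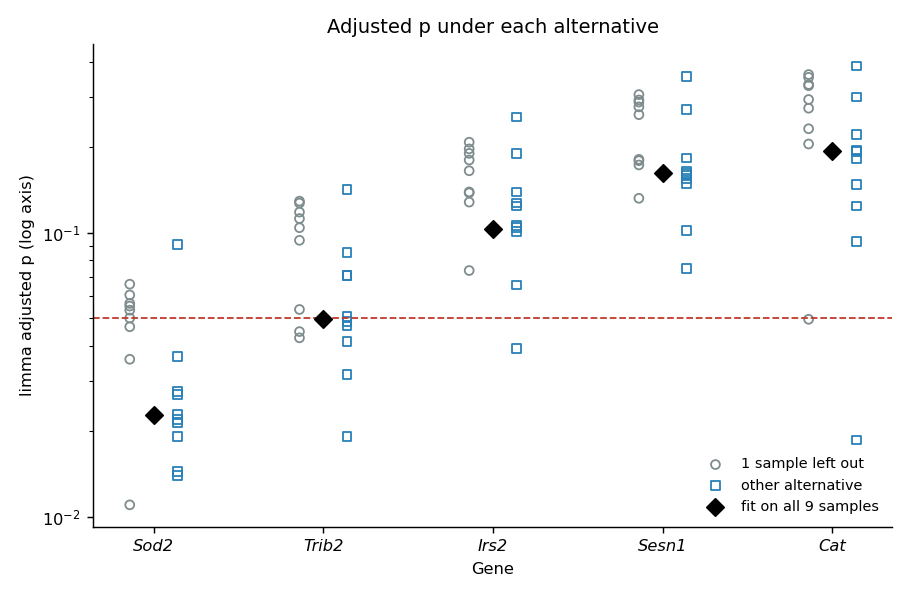
Limma adjusted p (vertical log axis) of 5 genes with all 9 samples (black diamonds), with 1 sample left out (grey circles) and under the other alternatives (blue squares); the dashed line is the threshold of 0.05. Sod2 runs from 0.011 to 0.0907 and Trib2 from 0.0191 to 0.142, on both sides of the line, and Sesn1 stays above it.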

How the data were processed

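Per the labels' protocols, total RNA of sorted CD4+YFP+ Treg cells was converted to biotinylated cDNA with NuGEN kits. The authors deposited 1 table of log2 values from RMA. The submitters' processing notes name Affymetrix Expression Console 1.1. The sources used here do not give its genome build. No detection calls were used, and precision is limited by the 9 arrays. RMA fits arrays jointly by medians and can return 1 value for several arrays. Values identical to every deposited digit in at least 2 samples occurred in 4 of the 10 genes and 56.6% of all genes.

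Probe sets were named from the platform annotation where it gave 1 symbol. Txnip and Irs2 are also listed in 2 probe sets that name several genes, which were not used. The probe set with the highest mean stood for a gene. KO and WT were compared with limma 3.58.1 in R 4.3.3 (lmFit, eBayes, two-sided, Benjamini-Hochberg over 22180 genes), tested on simulated data. Other steps used Python 3.11.15, pandas 2.3.3, numpy 2.4.6 and matplotlib 3.10.9.

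The genes and lists were chosen with earlier results of these data known. Named genes were the 10 genes, Stk4 and Foxp3, from each related list up to 4 passing genes (or 2 with the smallest p), and 2 nearest patterns for Foxo1, Foxo3, Trib2 and Sod2. Alternatives changed the replicate block, the filter on low values, the joining of probe sets, the normalization between samples, the eBayes and weight settings, or the samples, or added a heat shock covariate (the mean of Hspa1a and Hspa1b).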

Additional observations from a re-analysis of the deposited data

Results flagged for a closer look

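Of 82 sets of replicate values examined (41 of the genes or probe sets named in the text, in KO and in WT), 7 held a sample far from the others of its group. Other named genes, such as S100a8 and S100a9, were not examined. Chance alone gives about 1 in 20 where values are independent and normal. Values shared by several samples, as in Akt2, break that condition, and the share over all genes was not computed. Among the 10 genes the flagged set was Pik3ip1, at 6.87 in KO replicate 1 and between 6.29 and 6.37 in the other KO samples, a gap of 0.863 of the whole range. The remaining 6 were in other named genes. Pde3b was 5.31 in KO replicate 1 and 4.72 to 4.82 in the others (gap 0.833 of the range), and Arhgef1 was 10.3 in KO replicate 4 and 10.56 to 10.57 in the others (gap 0.961). WT replicate 3 stood apart for Stk4, at 8.09 beside 7.84 to 7.88 in the other WT samples (gap 0.818), and for Nkg7, at 7.66 beside 8.16 to 8.31 (gap 0.765). Akt2 was 8.01 in KO replicate 2 and 7.90 in each other KO sample (gap 1.0), and in WT its values differed only beyond 2 decimals, with replicate 3 apart from 4 samples of equal value (gap 1.0).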

How the results depend on the processing

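Over all genes, the count past the threshold lay within 1.5 times 515 in the other alternatives, but was 178 with the replicate block (162 of them among the 515) and between 271 and 594 when 1 sample was left out. Of the 10 genes, 0 passed with the replicate block, 1 (Sod2) with the most variable probe set of each gene, with median centring or with the heat shock covariate, and between 0 and 2 when 1 sample was left out. Same-numbered samples did not deviate together (r from -0.115 to 0.042 over genes), which cannot settle whether the numbers mark a pairing. The replicate block gave limma adjusted p = 0.142 for Trib2 and 0.0907 for Sod2. Over 19 alternatives Trib2 stayed between 0.39 and 0.50 and lost its call in 12, and Sod2 stayed between -0.75 and -0.53 and lost it in 6. Cat gained a call in 2 and Irs2 in 1. The cause was not tested.

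Among the related genes called with all samples, Rbl2 and Glrx kept their calls in 19 of 19 alternatives, while Pik3r5 lost its call in 2 (0.0945 with the replicate block), Gsr in 6 and Inpp5d in 15. Among the markers, Ikzf2 lost its call in 9, and Dapl1 and Igfbp4 in 8 each, with limma adjusted p = 0.1, 0.0983 and 0.1 without both KO replicates 2 and 4. Of the genes picked for a pattern like that of Sod2, Tbc1d4 kept its call in 19 and Mdh1 lost it in 1, the replicate block (0.0632).

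Signs turned only in uncalled genes near 0. Foxo1 was -0.033 with the mean of its probe sets, -0.117 with the more variable one and between -0.01 and 0.12 when 1 sample was left out. Such ranges were -0.068 to 0.188 for Foxo3, -0.058 to 0.067 for Txnip, -0.03 to 0.11 for Foxo6, -0.116 to 0.03 for Foxo4, -0.013 to 0.055 for Foxp3, -0.001 to 0.037 for Akt2 and -0.091 to 0.086 for Amer1. Txnip was 0.001 with the replicate block and 0.049 after quantile normalization, under which Foxo4 was 0.032 and Amer1 0.05. Amer1 was 0.014 with array weights, and without both KO replicates 2 and 4 it was 0.178 and Akt2 -0.001.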
